A study of Homo sapiens with 14 samples.

Results

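AT-rich DRIP peaks are the peaks whose GRCh38 sequence holds a G plus C (GC) share under 30% of its known bases. They were chosen by that share alone, among all peaks on chromosomes 1 to 22 and X of 8 DRIP-seq libraries, with no measured value in the rule. They numbered 39260 of 1315747 peaks, or 2.98%. DRIP-seq pulls down restriction-cut DNA with S9.6, an antibody to DNA:RNA hybrids, and sequences it. All 8 libraries came from Nalm-6 cells, which derive from a human B-cell leukemia, in isogenic SF3B1-K700K (WT) and SF3B1-K700E (MT) forms. SF3B1 is a core splicing factor and K700E is its most frequent leukemia mutation. For each genotype there were 2 untreated libraries, and 2 from DNA incubated with RNase H (RNH1), the enzyme that digests the RNA of a hybrid. HEK293T RNA-Seq samples of the same series hold no peaks and were not used here. Peak lists hold neither transcript levels nor reads, so neither the cell type nor the K700E allele could be checked in them, and whether each line was a single clone was not given in the sources used here.

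R-loops form when a nascent RNA pairs with its template strand and leaves the other DNA strand unpaired. They are best known at GC-rich promoters and at gene ends, where G-rich RNA makes stable hybrids, whereas hybrids of U in the RNA with A in the DNA are among the weakest. AT-rich DNA is known for gene deserts, for the long introns of large genes and for late-replicating chromatin at the nuclear lamina.

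The sequences around the summits of 8 AT-rich regions are shown to let the base composition be read directly. A region is the union of overlapping peaks of the 8 libraries, and those shown had the highest fold enrichment, or one of the 5 highest, among regions with untreated peaks only in WT, only in MT, in all 4 untreated and no RNH1-treated libraries, or in all 8 libraries. Each line is 150 bases of GRCh38, plus strand, 5′ to 3′, centred on the summit of the peak with the highest fold enrichment in that region, with every G and C in capitals.
DDHD1, peaks only in WT, chr14:53062218-53062367: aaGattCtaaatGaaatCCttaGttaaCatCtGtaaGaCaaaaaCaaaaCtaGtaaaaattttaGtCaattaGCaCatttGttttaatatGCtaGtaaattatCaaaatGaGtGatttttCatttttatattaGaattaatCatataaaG
Intergenic, nearest coding gene SMIM31, peaks only in WT, chr4:164626303-164626452: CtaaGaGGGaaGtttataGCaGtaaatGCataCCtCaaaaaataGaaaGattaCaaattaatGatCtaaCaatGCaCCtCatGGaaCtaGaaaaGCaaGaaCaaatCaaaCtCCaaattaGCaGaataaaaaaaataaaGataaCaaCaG
DCUN1D5, peaks only in MT, chr11:103069793-103069942: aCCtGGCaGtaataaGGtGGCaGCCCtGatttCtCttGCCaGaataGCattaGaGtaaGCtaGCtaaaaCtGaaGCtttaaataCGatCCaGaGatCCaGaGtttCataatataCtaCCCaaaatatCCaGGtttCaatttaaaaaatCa
TLR3, peaks only in MT, chr4:186077768-186077917: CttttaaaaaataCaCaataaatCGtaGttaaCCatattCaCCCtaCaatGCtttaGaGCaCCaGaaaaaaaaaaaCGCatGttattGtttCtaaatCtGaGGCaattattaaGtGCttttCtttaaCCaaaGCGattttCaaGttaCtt
GLYATL1, untreated peaks only, chr11:58951428-58951577: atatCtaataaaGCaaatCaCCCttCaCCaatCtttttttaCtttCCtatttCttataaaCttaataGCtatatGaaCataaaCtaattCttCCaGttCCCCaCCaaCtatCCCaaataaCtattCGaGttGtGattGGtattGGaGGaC
Chromosome 9 lncRNA intron, peaks in all 8 libraries, chr9:11361918-11362067: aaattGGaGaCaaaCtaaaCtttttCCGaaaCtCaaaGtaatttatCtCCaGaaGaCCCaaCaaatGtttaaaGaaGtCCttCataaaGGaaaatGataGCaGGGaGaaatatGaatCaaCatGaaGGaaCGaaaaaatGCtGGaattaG
DNAH5, peaks in all 8 libraries, chr5:13902892-13903041: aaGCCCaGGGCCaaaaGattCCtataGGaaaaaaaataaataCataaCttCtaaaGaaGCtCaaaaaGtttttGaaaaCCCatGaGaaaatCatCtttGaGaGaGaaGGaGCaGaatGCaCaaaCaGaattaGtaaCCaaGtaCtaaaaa
Intergenic, chromosome 17, peaks in all 8 libraries, chr17:53128992-53129141: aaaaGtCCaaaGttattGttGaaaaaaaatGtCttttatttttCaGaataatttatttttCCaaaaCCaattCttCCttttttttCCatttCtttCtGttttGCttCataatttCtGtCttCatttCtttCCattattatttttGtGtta
The shares of G and C in these windows ran from 20.7% at DDHD1 to 36.7% at DCUN1D5. The 30% limit applied to the whole peak and not to the summit window. At DCUN1D5 the summit lay at the left end of the region, which starts at chr11:103069866, so the window also holds flanking bases outside it. Several windows held far more of A than of T on the strand shown, or the reverse: the DNAH5 window holds 73 A and 28 T, the SMIM31 window 78 A and 28 T, and the chromosome 17 window 38 A and 78 T. Those at DDHD1 and GLYATL1 were balanced, with 64 A and 55 T and with 49 A and 53 T.

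AT-rich peaks were common in WT and rare in MT. The untreated WT libraries held 12261 and 11547 AT-rich peaks, 9.92% (95% Wilson interval 9.76 to 10.1) and 8.82% (8.67 to 8.97) of their lists. The untreated MT libraries held 1343 and 2195, or 0.529% (0.502 to 0.558) and 0.742% (0.711 to 0.773), although their lists were longer. Both MT libraries lay far below both WT libraries, in number and in share. The mean number was 11904 ± 505 (SD, n = 2) in WT and 1769 ± 602 in MT, 6.73-fold lower in MT or a log2 ratio of -2.75. With the same number of peaks, 34857 with the lowest p, taken from every list, WT had 4382 and 4082 AT-rich peaks and MT had 188 and 226, a log2 ratio of -4.35. The share in the full lists was lower by 8.73 percentage points (exact permutation test, two-sided, p = 0.333, the smallest that 2 libraries against 2 allow, so that no comparison of the genotypes could pass 0.05). The intervals cover counting error only.

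RNH1-treated libraries showed the same order of the genotypes. The WT lists held 3210 and 5419 AT-rich peaks, 9.21% (8.91 to 9.52) and 7.002% (6.82 to 7.18) of their lists. The MT lists held 1619 and 1666, or 0.805% (0.767 to 0.845) and 0.841% (0.801 to 0.882). The groups did not overlap in share or in number, with a log2 ratio of MT over WT of -1.39 and a share lower by 7.28 percentage points (exact permutation test, p = 0.333 for both). With a limit of 35% GC the log2 ratio of the counts after RNH1 was 0.46, in the opposite direction, while the share was still lower in MT. With equal numbers of peaks the log2 ratio after RNH1 was -3.43.

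**Figure D1:**
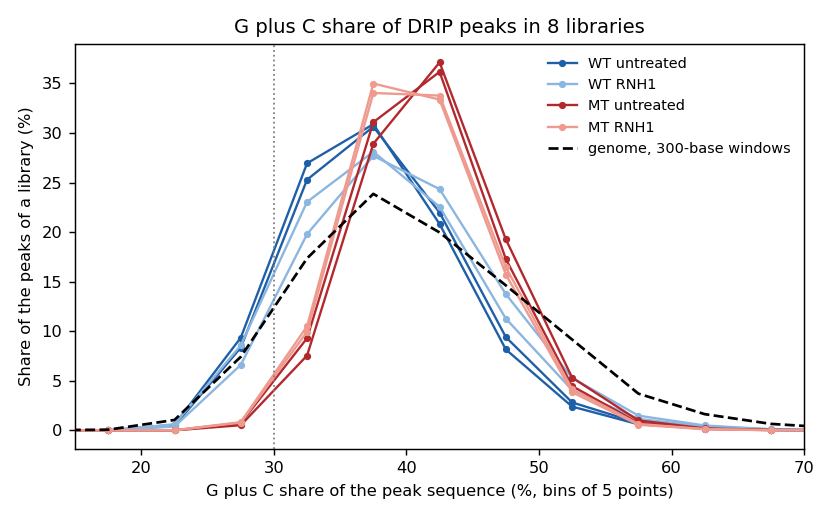
Share of the peaks of each library (%) by the GC share of the peak sequence, in bins of 5 percentage points, for 2 WT and 2 MT libraries of each treatment and for consecutive 300-base windows of the genome (dashed). Left of the dotted line at 30%, the 4 WT curves run near the genome curve and the 4 MT curves lie near 0. Peaks vary in length, and the windows do not.

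The limit of 30% cut a gradient and marked no step. Just inside, between 29% and 30% GC, untreated WT had 4142 and 3943 peaks and untreated MT 683 and 1124. Just outside, between 30% and 31%, WT had 5134 and 5066 and MT 1270 and 1937. MT over WT, the log2 ratio was -5.03 under 25% GC, where untreated WT had 703 and 605 peaks and untreated MT 16 and 24. It was -3.43 from 25% to 28%, -2.16 from 29% to 30%, -1.67 from 30% to 31% and -0.22 from 32% to 35%. It changed sign above 35%, at 1.08 from 35% to 40%, and was 2.16 from 45% to 50%. The whole lists moved the same way: the median GC share of all peaks was 37.0% to 39.2% in the WT libraries and 40.5% to 41.6% in the MT libraries. Its part in the number of AT-rich peaks was not tested. Of consecutive 300-base windows of the genome, 834709 were under 30% GC, or 8.60%. The shares in the WT lists, 7.002% to 9.92%, lay on both sides of that value, and the shares in the MT lists lay below it. Peaks vary in length and had median widths above 300 bp, so peaks and windows are not of like length. With the GC of the 300 bases centred on the summit, the share differed by -10.3 percentage points untreated and -8.13 after RNH1, MT minus WT.

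Depth differed between the lists and is known only through the pileup of the background, the number of reads the peak caller expected at a position, which could be recovered from the deposited values. It was 2.99 and 3.13 in the untreated WT libraries, 3.51 and 4.35 in the untreated MT libraries, 1.62 and 2.17 in WT after RNH1 and 2.76 and 2.55 in MT after RNH1. The lists held 123582 and 130928 peaks, 253744 and 295970, 34857 and 77391, and 201117 and 198158, in that order. The library with the lowest background, WT RNH1 replicate 1, also had the shortest list. At their summits AT-rich peaks had a median pileup of 17 to 25 reads.

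Fewer AT-rich peaks were seen after RNH1 in WT, and the change was not of one direction in MT. The number after RNH1 was 0.262 and 0.469 of the untreated number in WT replicates 1 and 2, and 1.21 and 0.759 in MT. For all peaks of the same lists the WT ratios were 0.282 and 0.591 and the MT ratios 0.793 and 0.670. In WT the AT-rich peaks therefore went down slightly more than the list as a whole, and in MT slightly less or not at all. Of AT-rich peaks after RNH1, 75.7% and 74.8% in WT and 40.8% and 57.6% in MT shared a base with a peak of the untreated library of the same number. For other peaks the shares were 63.3% and 56.6% in WT, below those of AT-rich peaks, and 64.2% and 73.1% in MT, above them.

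AT-rich peaks of untreated DNA were overlapped after RNH1 about as often as other peaks were. The share that met at least 1 base of a peak in the matched RNH1-treated library was 19.6% of AT-rich and 17.9% of other peaks in WT replicate 1 and 35.2% and 34.1% in WT replicate 2. It was 52.6% and 50.9% in MT replicate 1, and 43.4% and 48.9% in MT replicate 2. The mean difference of AT-rich minus other peaks was -0.28 percentage points (exact sign-flip permutation test over 4 libraries, two-sided, p = 1, smallest possible 0.125). AT-rich peaks had the higher share in 3 of 4 libraries, and without MT replicate 2 the mean difference was 1.45 percentage points. Its sign thus depended on 1 library, and it also changed with the processing settings. The overlap was larger in both MT libraries than in both WT libraries, by 20.6 percentage points (exact permutation test, p = 0.333), beside MT RNH1 lists that were longer than the WT ones. With the same number of peaks taken from every list, the difference was 5.84 percentage points (exact permutation test, p = 0.667), and without either library of WT replicate 1 it was 12.8.

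Untreated peaks with no such overlap are called bona fide here. The study called its bona fide peaks over the RNH1-treated samples, so its set need not be the same as this one. There were 9863 and 7487 AT-rich bona fide peaks in WT and 637 and 1243 in MT, means of 8675 ± 1680 and 940 ± 429 (SD, n = 2) and a log2 ratio of -3.21 (exact permutation test, p = 0.333), or -4.53 with equal numbers of peaks. The overlapped AT-rich peaks had median fold enrichments of 6.31 and 5.93 (WT) and 4.87 and 4.92 (MT). For the bona fide AT-rich peaks it was lower in all 4 libraries, at 4.51, 4.36, 3.99 and 3.92. Other peaks had the same order. The GC share did not separate them, with medians of 28.4% for both kinds in WT and of 28.99% to 29.07% in MT.

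**Figure D2:**
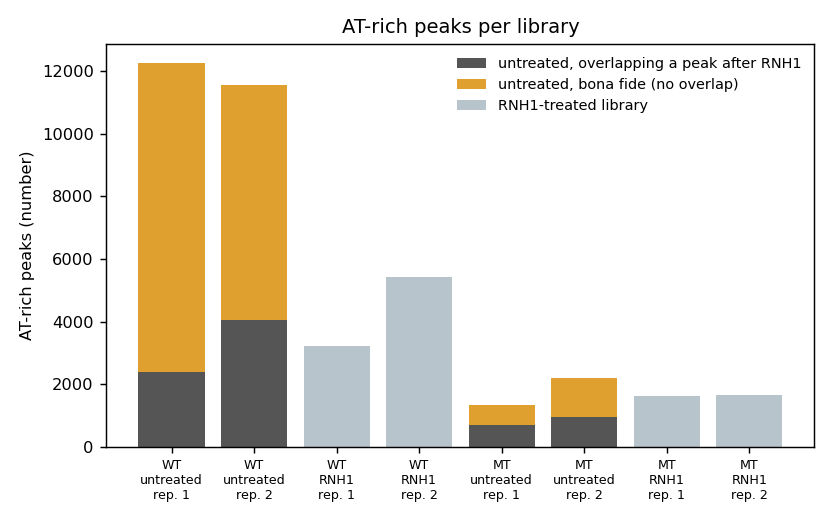
Number of AT-rich peaks in each library, with the untreated bars divided into peaks overlapped after RNH1 in the matched library (grey) and bona fide peaks (yellow). The untreated WT bars reach 12261 and 11547 and the untreated MT bars 1343 and 2195.

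Merging all lists gave 479021 regions, of which 16043, or 3.35%, had a sequence under 30% GC. They held 77.5% of the AT-rich peaks, since an AT-rich peak can merge into a region with a higher GC share. Of the AT-rich regions, 6775 (42.2%) had a peak in both untreated WT libraries and none in the untreated MT libraries, against 7.01% of all regions. The opposite pattern, both untreated MT and no untreated WT peak, was found in 331 (2.06%), against 27.6% of all regions. A peak in all 8 libraries was found in 143 AT-rich regions (0.891%, against 2.20% of all), and a peak in all 4 untreated and no RNH1-treated libraries in 70 (0.436%, against 1.48%). Of the 6775 regions only in WT, 2821 (41.6%) also had an RNH1-treated WT peak and 239 (3.53%) an RNH1-treated MT peak, against 32.9% and 9.60% of all regions only in WT. The count only in MT was 971 without untreated MT replicate 1 and 478 without replicate 2. The count only in WT was 9462 and 9674 without untreated WT replicates 1 and 2. In each case only 1 library of that genotype had to hold a peak, so the count could not fall. Requiring bona fide peaks gave 3963 regions only in WT and 142 only in MT.

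**Figure D3:**
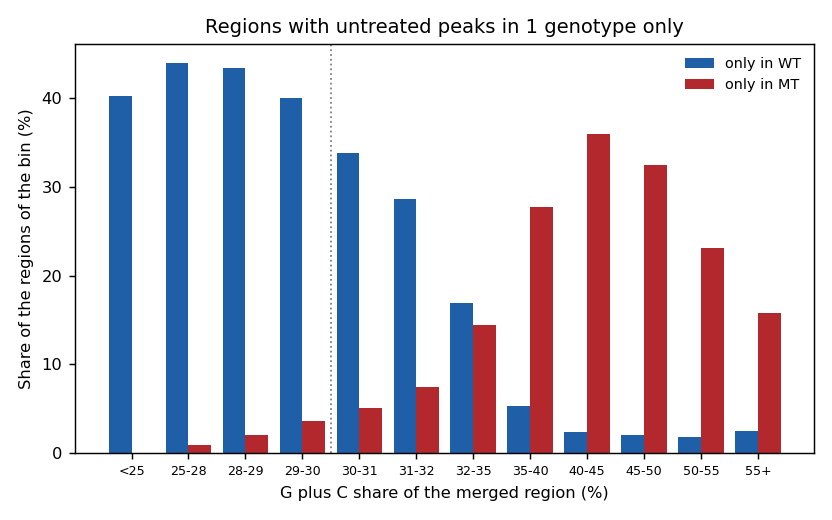
Share of merged regions (%) with untreated peaks only in WT (blue) or only in MT (red), by the GC share of the region, with the 30% limit dotted. Between 25% and 28% GC the shares were 43.9% and 0.876%, and between 40% and 45% they were 2.36% and 35.9%.

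Peaks of the same genotype met each other in most cases. Of AT-rich peaks, 72.5% of WT replicate 1 were met by a peak of WT replicate 2 and 72.7% of replicate 2 by one of replicate 1, against 70.9% and 66.2% of other peaks. In MT, 78.9% of replicate 1 were met in replicate 2 and 44.9% of replicate 2 in replicate 1, against 81.1% and 69.5% of other peaks. Across genotypes, 8.39% to 12.8% of untreated WT AT-rich peaks were met by an untreated MT peak, against 51.1% to 56.8% of other WT peaks. In the other direction, 40.1% to 43.2% of untreated MT AT-rich peaks were met by an untreated WT peak, against 21.6% to 24.2% of other MT peaks. The few AT-rich peaks of MT were thus met in WT more often than the other MT peaks were.

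Where all 4 untreated libraries had a peak, the fold enrichment also leaned to WT. The WT medians over the 406 such AT-rich regions were 6.31 and 6.49, and the MT medians 5.54 and 6.17. Over all 42800 such regions WT had 4.88 and 5.03, and MT 5.36 and 5.61. Both WT libraries lay above both MT libraries in 183 AT-rich regions (45.1%), against 26.4% of all, and both MT above both WT in 111 (27.3%), against 43.6% of all. The median log2 ratio of MT over WT was -0.13 in AT-rich regions and 0.13 in all regions. No test was run on these counts.

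The strongest region only in WT lay at chr14:53062189-53062647 in DDHD1, which encodes a phospholipase, 1.09 kb from a transcription start site. Its fold enrichment was 16.4 and 17.5 in untreated WT and 14.2 and 16.1 in WT after RNH1, and MT had none. The next was intergenic, at chr4:164626241-164626637, 127.6 kb from SMIM31, with 14.1 and 17.9 untreated and 21.6 in both WT libraries after RNH1. The others lay at chr1:81998958-81999405, 5.2 kb outside ADGRL2, a latrophilin adhesion receptor gene, and between genes at chr1:194269265-194269952 and chr17:12373718-12374250, 1014.8 kb and 230.2 kb from the nearest protein-coding gene. All 5 also had a peak in both RNH1-treated WT libraries, and the 2 last ones had one, at 6.66 and 3.73, in MT RNH1 replicate 1.

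The 5 strongest regions only in MT had lower values, and 4 of the 5 lay in genes. They were taken from 331 regions, against 6775 only in WT, and the sets were not matched in size. At chr11:103069866-103070149, in an intron of DCUN1D5, a gene of protein neddylation, untreated MT had 12.8 and 12.2 and MT RNH1 replicate 1 had 11.7. An intron of BANK1, a B-cell scaffold protein of antigen receptor signalling, had 9.30 and 12.9 untreated and 5.06 and 7.32 after RNH1 at chr4:101666863-101667231. ENAH, an actin regulator, had 8.47 and 12.9 untreated and 9.71 and 8.07 after RNH1 at chr1:225603822-225604219. The region at TLR3, the endosomal receptor for double-stranded RNA, lay 1.82 kb from a start site, at chr4:186077596-186077978. It had 8.86 and 11.8 untreated and no peak after RNH1. The remaining region was intergenic, at chr3:145120506-145120908, 914.4 kb from PLOD2, with 12.8 and 11.8 untreated and 6.53 in MT RNH1 replicate 1. No WT library had a peak in any of them.

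Regions with peaks in all 4 untreated libraries and none after RNH1 reached lower values than those only in WT, in a set of only 70 regions. The strongest was an intron of GLYATL1, which encodes a glycine acyltransferase-like protein, at chr11:58951079-58951606, with 11.9 and 10.3 in WT and 9.75 and 9.72 in MT. The other 4 were intergenic, 106.1 to 391.6 kb from the nearest protein-coding gene (FERD3L, FMR1, CNTN3 and BRINP3), with values from 7.01 to 10.2. Within each region the genotypes were close, and in 3 of the 5 both WT values exceeded both MT values.

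Regions with peaks in all 8 libraries reached values like those only in WT. At chr9:11361797-11362491, in an intron of a lncRNA gene 749.1 kb from PTPRD, the WT values were 16.6 and 14.8 untreated and 12.1 and 16.6 after RNH1, and the MT values 18.8 and 20.6, then 18.9 and 17.8. An intron of DNAH5, an axonemal dynein heavy chain, had 11.3 and 13.6 in untreated WT and 21.6 and 18.8 after RNH1 at chr5:13902857-13903392. In MT it had 9.94 and 11.4 untreated and 19.1 and 18.6 after RNH1, so that RNH1-treated values exceeded untreated ones in both genotypes. The same order was seen at chr2:163237904-163238483, near FIGN, with 13.3, 15.2, 10.9 and 10.2 untreated and 19.4, 21.8, 15.6 and 16.1 after RNH1. It was also seen at chr4:136664422-136664999, with 12.3, 12.6, 10.4 and 12.4, then 14.7, 17.5, 15.9 and 12.6. At chr17:53128327-53129163 WT had 12 and 11.3 untreated and 10.1 and 10.9 after RNH1, and MT 12.6 and 16.6, then 16.9 and 18.3. Medians of other peaks were also higher after RNH1, 4.64 to 5.06 against 4.34 to 4.36 in WT and 4.78 to 4.95 against 4.30 to 4.39 in MT.

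AT-rich peaks lay farther from genes than other peaks of the same library. On average over 8 libraries, 44.4% ± 2.17 (SD, n = 8) were intergenic, against 35.7% ± 0.859 of other peaks, and 9.30% ± 0.814 lay within 3 kb of a start site, against 15.2% ± 0.762. The differences, 8.74 and -5.86 percentage points, had the same sign in 8 of 8 libraries (exact sign-flip permutation test, two-sided, p = 0.00781 for both, the smallest possible, adjusted p = 0.0137 over 14 measures). Exons held 2.02% of AT-rich and 3.23% of other peaks (exact sign-flip test, adjusted p = 0.0137), and introns 44.2% and 45.9% (adjusted p = 0.0199, lower in 7 of 8 libraries). The median distance to a start site was 24.4 to 28.01 kb, against 16.04 to 17.6 kb. The 2 libraries of a group share a cell line, and the RNH1-treated and untreated libraries share DNA, so the 8 values are not fully independent.

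AT-rich sequence of the genome as a whole lay in much the same places. Of AT-rich genome windows, 40.4% were intergenic, 44.7% intronic, 12.0% near promoters and 2.94% exonic, with a median distance to a start site of 22.6 kb. In all 8 libraries the AT-rich peaks had a higher intergenic share than these windows, 40.9% to 47.5%, and a lower promoter share, 7.66% to 10.3%. The intergenic share was higher after RNH1 than in the untreated library of the same number in all 4 pairs, at 43.4% and 47.5%, 43.7% and 46.6%, 42.9% and 46.0%, and 40.9% and 44.6%. Other peaks moved the same way in all 4 pairs, by less, from 34.9% to 35.03% in the untreated libraries to 35.7% to 36.8% after RNH1.

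AT-rich peaks were narrower than other peaks. The median width was 386, 387, 336 and 386 bp in the WT libraries, untreated before RNH1, and 323, 327, 331 and 335 bp in MT, against 388 to 455 bp for other peaks. The log2 difference was -0.32 on average, with the same sign in 8 of 8 libraries (exact sign-flip test, adjusted p = 0.0137). The rule takes the GC share over the whole peak, so it bears on width itself and this comparison is not independent of it. With the GC of the 300 bases centred on the summit the log2 difference was -0.13 (exact sign-flip test, p = 0.00781). With a limit of 25% GC it was -0.44. The narrowest peak of a list was 242 to 273 bp, and the 5th percentile of AT-rich widths was 249 to 277 bp. The AT-rich peaks of MT were also more uniform, with a 95th percentile of 495 to 546 bp against 690 to 847 bp in WT.

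The summits of AT-rich peaks were slightly higher in fold enrichment. The WT medians were 4.73, 4.79, 5.61 and 5.54 and the MT medians 4.43, 4.30, 5.26 and 4.99, against 4.34, 4.36, 5.06, 4.64, 4.39, 4.30, 4.95 and 4.78 for other peaks. AT-rich peaks had the higher median in 7 of 8 libraries and an equal one in untreated MT replicate 2, with a mean log2 difference of 0.10 (exact sign-flip test, adjusted p = 0.0199). The pileup at the summit, 17 to 25 reads against 15 to 27, did not pass the test (adjusted p = 0.344, exact sign-flip test), nor did the local background (adjusted p = 0.0729). With a limit of 25% GC the difference in fold enrichment was 0.015 (exact sign-flip test, p = 0.812) and the call was lost.

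The DNA had been cut with HindIII (site AAGCTT), EcoRI (site GAATTC), BsrGI (site TGTACA), XbaI (site TCTAGA) and SspI (site AATATT, which holds only A and T). Between 29.4% and 33.7% of the edges of AT-rich peaks lay on these sites, and the following 40-base stretches of GRCh38 show some of those that did. They are from the plus strand, 5′ to 3′, at an edge of the strongest peak of a region, with the site in capitals.
DDHD1 left edge, SspI, chr14:53062169-53062208: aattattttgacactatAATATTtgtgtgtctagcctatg
Chromosome 1 region only in WT, left edge, BsrGI, chr1:194269247-194269286: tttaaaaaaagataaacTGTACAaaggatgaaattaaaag
Chromosome 17 region only in WT, right edge, HindIII, chr17:12374229-12374268: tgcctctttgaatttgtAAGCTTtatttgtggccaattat
DCUN1D5 left edge, HindIII, chr11:103069848-103069887: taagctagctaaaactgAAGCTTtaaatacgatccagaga
BANK1 right edge, SspI, chr4:101667212-101667251: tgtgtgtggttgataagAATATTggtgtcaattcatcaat
GLYATL1 right edge, SspI, chr11:58951587-58951626: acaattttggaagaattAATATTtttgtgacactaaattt
DNAH5 left edge, EcoRI, chr5:13902839-13902878: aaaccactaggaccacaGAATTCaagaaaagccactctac
Chromosome 17 region of all 8 libraries, right edge, XbaI, chr17:53129142-53129181: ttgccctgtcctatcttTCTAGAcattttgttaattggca
Of the 40 edges of the 20 regions named above by the highest fold enrichment, 16 lay within 20 bp of a site, in 15 of the 20 regions.

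Over all AT-rich peaks, that share of edges fell exactly on a position cut in either strand of these sites, and 0.312% of genome positions are such positions. For other peaks the share was 26.5% to 28.4%, lower in 8 of 8 libraries (exact sign-flip test, adjusted p = 0.0137). Each of the 5 sites holds more A and T than G and C, so the rule on GC itself bears on this comparison. Within 20 bp of a site, the shares were 31.6% to 34.4% and 27.5% to 30.01%, against 12.7% of the starts of AT-rich genome windows. At least 1 edge within 20 bp was found in 58.4% to 60.8% of AT-rich peaks in WT and 66.6% to 68.3% in MT. SspI sites accounted for 15.3% to 17.5% of the edges of AT-rich peaks and for 6.85% to 9.62% of those of other peaks, while HindIII had the opposite order, 4.86% to 6.07% and 6.85% to 8.51%.

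Peaks with both edges exactly on cut positions, that is peaks that coincide with a run of whole fragments, were a small minority, with a larger share in WT than in MT. There were 469 and 552 among AT-rich peaks of untreated WT and 88 and 220 in WT after RNH1, or 3.83%, 4.78%, 2.74% and 4.06%. In MT there were 4, 5, 7 and 3, or 0.298%, 0.228%, 0.432% and 0.180%. Among other peaks the WT shares were 5.07%, 5.47%, 3.42% and 3.94% and the MT shares 1.47%, 1.62%, 1.77% and 1.58%. Every WT library thus lay above every MT library, in AT-rich and in other peaks. The share was lower in AT-rich than in other peaks in 7 of 8 libraries, with a mean difference of -0.974 percentage points (exact sign-flip test, adjusted p = 0.0199). The fragment at the summit was 803 to 962 bp long in the median for AT-rich peaks and 1130 to 1316 bp for other peaks, against 538 bp for AT-rich genome windows. How restriction sites shaped the lists was not tested beyond these counts.

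**Figure D4:**
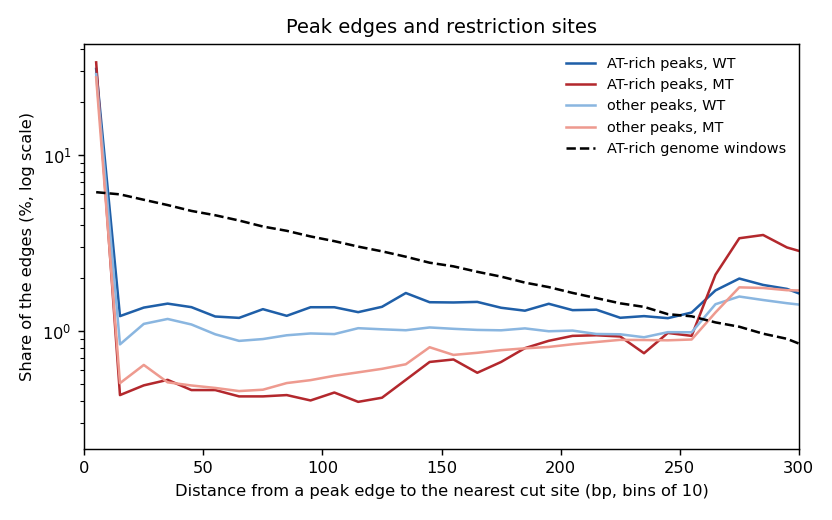
Share of peak edges (%, log scale) by distance to the nearest cut site in bins of 10 bp, for AT-rich and other peaks of each genotype, and for the starts of AT-rich genome windows (dashed). Of AT-rich edges, 30.8% in WT and 33.6% in MT lie within the first 10 bp, and a second rise follows from 270 to 290 bp, near the narrowest width of a peak.

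Within the 300 bases at the summit AT-rich peaks held cut sites less often than AT-rich windows of the genome, but more often than other peaks. Any of the 5 sites was found in 29.2% to 36.9% of windows in WT and 42.7% to 43.6% in MT, against 65.8% of genome windows. For other peaks it was 24.8% to 28.7%, lower than for AT-rich peaks in each library. An SspI site was in 13.9% to 23.8%, against 49.0% of genome windows and 5.91% to 8.16% of other peaks. Repeats of TA of 20 bases or more were rare, in 0.0312% to 0.120% of AT-rich peaks of 7 libraries and in 0 of 2195 peaks of untreated MT replicate 2, which allows a share of up to 0.137%, against 0.949% of genome windows. Runs of 10 or more A or T were in 6.70% to 8.49% of WT and 9.84% to 11.2% of MT peaks, against 7.85%. The polyadenylation hexamer AATAAA or its complement TTTATT was in 77.5% to 80.3% of AT-rich peaks, against 78.8%. Both strands were searched, and a match is a description of the sequence only.

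AT-rich peaks tended to have A on one strand and T on the other. The median A over T imbalance at the summit, the absolute difference over the sum, was 19.4% and 20.4% in untreated WT and 17.8% and 17.4% in untreated MT, against 10.2% in AT-rich genome windows. After RNH1 it was higher in each of the 4 pairs, at 23.6% in both WT libraries and 21.0% and 21.5% in MT. Other peaks also had higher values after RNH1 in each pair, 12.4% to 13.3% untreated and 15.3% to 15.6% after RNH1. For AT-rich peaks in the body of protein-coding genes of one strand, the coding strand held more A than T in 29.6% to 34.9%, against 39.2% to 40.3% of other genic peaks, a difference of -7.84 percentage points with the same sign in 8 of 8 libraries (exact sign-flip test, adjusted p = 0.0137). T was therefore the more frequent base on the coding strand. In genic AT-rich windows of the genome the share was 35.3%, so that all 8 libraries lay on the low side of it. CpG dinucleotides numbered 2.69 to 3.34 per kb, near the 2.88 of AT-rich windows, which the rule on GC largely sets.

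Across chromosomes AT-rich regions followed AT-rich sequence. Chromosome 4, where 13.4% of windows are AT-rich, had the most regions, 1637, and chromosome 22 the fewest, 60. Per 1000 AT-rich windows the autosomes had 15.1 (chromosome 19) to 21.3 (chromosome 20). Chromosome X stood apart with 10.3, from 462 regions, and it also had few other regions, 85.5 per Mb, where only chromosome 22 had fewer (76.3). In the untreated lists chromosome X had 6.23 and 6.32 AT-rich peaks per 1000 windows in WT and 0.871 and 1.63 in MT. Over 601 bins of 5 Mb the numbers of AT-rich regions and windows had a Pearson r of 0.929, a description of bins that share the same libraries. The richest bin, chr4:130000001-135000000, had 98 regions, and 12 bins had none.

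**Figure D5:**
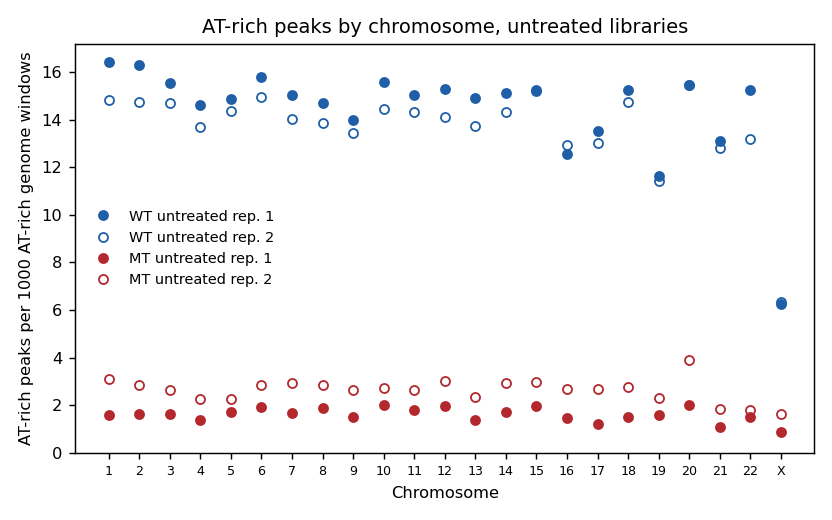
AT-rich peaks per 1000 AT-rich genome windows on each chromosome in the 4 untreated libraries, with WT in blue and MT in red, filled for replicate 1 and open for replicate 2. WT exceeds MT on all 23 chromosomes, and chromosome X is lowest in WT at 6.23 and 6.32.

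The genes with the most AT-rich regions were long ones. Of 19962 protein-coding genes, 2785 (14.0%) held at least 1 AT-rich region, and they had 17.1 per 1000 AT-rich windows. EYS, which encodes an extracellular protein of photoreceptors and spans 1987 kb, had the most, 30, of which 17 were only in WT and 1 only in MT. By library EYS had 21 and 27 peaks in untreated WT, 5 and 11 in WT after RNH1, 1 and 2 in untreated MT and 2 and 4 in MT after RNH1. PTPRD, a receptor tyrosine phosphatase, had 25 regions, with 19 and 19 peaks in untreated WT and 1 and 4 in untreated MT. GPC5, a glypican, and PCDH15, a protocadherin of inner-ear hair cells, each had 24, and GPC5 had 18 and 14 peaks in untreated WT and 0 and 2 in untreated MT. CTNNA3, an alpha-catenin, had 23. MGAT4C, a glycosyltransferase, had 21, SGCZ, a sarcoglycan, 21, LRP1B, a lipoprotein receptor, 20, and CCSER1 19. In each of the genes named here, every untreated WT library held more AT-rich peaks than every untreated MT library. Of all AT-rich regions, 83.6% held an untreated WT peak and 13.5% an untreated MT peak. Ranking genes by their number of regions therefore favoured WT, and this order is no separate result.

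Per length, the order of genes was another. Among genes of 50 kb or more, FOXN2, a forkhead factor, had the highest density, with 4 regions in 64.7 kb or 61.9 per Mb, followed by CHIC2 (54.7), MGAT4D (53.5), PCDH10, a protocadherin (50.6), and CDH19, a cadherin (48.5). They rest on 3 to 5 regions each. Regions only in WT were most frequent in EYS (17), PTPRD (13), PCDH15 (12), DLG2, a synaptic scaffold (11), and GPC5 (11), with ROBO1, an axon guidance receptor gene, tied at 11. No gene had more than 2 only in MT. That number was reached by 8 genes, among them CAMTA1, CCSER1, FCHO2, IPMK and IQUB, and IPMK, an inositol phosphate kinase, had 1 and 0 peaks in untreated WT and 2 and 2 in untreated MT.

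Common fragile site genes are very long genes that break under replication stress. Of 25 such genes 24 held an AT-rich region, 222 in all, or 15.4 per 1000 AT-rich windows, and 5.95 per Mb against 4.23 per Mb in all protein-coding genes. PTPRD, CTNNA3 and LRP1B were among the highest with 25, 23 and 20, while FHIT and WWOX had 2 each and DMD 1. Of these regions 96 (43.2%) were only in WT and 3 (1.35%) only in MT, close to the 41.9% and 2.32% of AT-rich regions in all protein-coding genes. Neuronal adhesion genes are another group of long genes. Of these, 23 of 25 held an AT-rich region, 149 in all or 15.2 per 1000 windows, and 77 (51.7%) were only in WT. PCDH15 had 24, CDH18 17, CDH12 14 and CNTN5 13, while CNTNAP5 and CDH8 had none. The groups overlap in no gene, and neither exceeded the 17.1 per 1000 windows of all genes.

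B-lineage genes held AT-rich regions at the rate of all genes. They were found in 8 of 25 genes (32%, against 14.0% of all protein-coding genes) and numbered 11, or 17.03 per 1000 windows, against 17.1. AFF3, a transcriptional regulator of lymphoid cells, had 3 and RAG1, the recombinase of antigen receptor genes, had 2. EBF1, BACH2, IKZF3, TCF4, ERG and SYK had 1 each, and PAX5, CD79A and MS4A1 none. Only those of TCF4 and ERG (18.2% of the 11) were only in WT, against 41.9% of AT-rich regions in all protein-coding genes. None was only in MT, against 2.32%. Olfactory receptor genes lie in AT-rich clusters, and most are silent in most tissues outside the olfactory epithelium. Of 400 such genes 13 (3.25%, against 14.0% of all protein-coding genes) held 14 AT-rich regions, 14.97 per 1000 windows. Their median length was 2.24 kb, against 27.5 kb for all protein-coding genes. Of the 14 regions, 7 (50%) were only in WT, against 41.9%. The 60 cytosolic ribosomal protein genes, short and highly transcribed, held 0 AT-rich regions in 11 AT-rich windows, too few windows to show a difference. A region in 2 overlapping genes was counted in both, and no test was run on the gene lists.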

How the data were processed

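Groups followed the genotype and treatment given in the labels of each library. Methods state that DNA was cut with 5 enzymes and part of it treated with RNase H, that reads were aligned to GRCh38 with BWA-MEM without mitochondrial reads and duplicates, and that MACS2 called narrow peaks in each library. Tool versions were not given in the sources used here. The authors deposited for each peak a fold enrichment (a ratio over local background), the −log10 p-value and q-value, and a whole-number score, which was not used. Methods give a q of 0.05, but all lists held q values of 0.01 or lower. Read totals are not in the lists. Pileups were recovered from fold enrichment and p for 99.98% of peaks, to within 0.001 in −log10 p.

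GC shares came from a GRCh38 sequence, and classes, in the order promoter (3 kb to each side of a start), exon, intron and intergenic, from 251784 transcripts of GENCODE release 44. Named regions and genes were the 5 regions with the highest mean fold enrichment for each pattern, the 10 genes with the most AT-rich regions, the 5 with the most per Mb and per genotype, and list members, of which some are not reported here. Members and lists were chosen with earlier results of these data known, and the coding-strand and exact cut measures were added after the data had been seen. Tests were two-sided exact permutations over libraries, checked on simulated data, with Benjamini-Hochberg adjustment over 14 measures. The libraries of a group were not stated to be separate cultures, so p-values measure the spread between libraries, which may be technical. Other GC limits, peak thresholds, overlap rules and left-out libraries were tried.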

Additional observations from a re-analysis of the deposited data

Results flagged for a closer look

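The AT-rich share of peaks moved in opposite directions with RNH1 in the genotypes. RNH1-treated minus untreated, it differed by -0.712 and -1.82 percentage points in WT replicates 1 and 2, and by 0.276 and 0.0991 percentage points in MT replicates 1 and 2. Both WT pairs went down and both MT pairs went up. The difference between the genotypes was not tested. In the same pairs the median GC share of all peaks went from 37.0% to 38.1% and from 37.5% to 39.2% in WT, and from 41.6% to 40.7% and from 41.1% to 40.5% in MT, and the part of that shift in the AT-rich share was not tested.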

How the results depend on the processing

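Of 165 values recomputed under other settings, 150 kept their direction, their side of 0.05 or, for counts of regions, their size within 1.5 times. Comparisons of 2 libraries against 2 cannot pass 0.05, so their calls say nothing of stability. The difference in RNH1 overlap between AT-rich and other peaks, -0.28 percentage points, was 2.70 with a limit of 35% GC, 2.81 with the GC of 300 bases at the summit and 0.663 at a q of 0.0001. It was 1.06 at a fold enrichment of 4, 1.26 with equal numbers of peaks and 2.15 when a 50% overlap was required. With a limit of 25% GC it was -4.82, and with both RNH1 lists of the genotype -0.162. With 1 library left out it was -0.931 to 1.45. Its sign thus changed with the settings, and also without untreated MT replicate 2 or its RNH1-treated partner. The log2 ratio of AT-rich counts after RNH1 was 0.46 with a limit of 35% GC. The fold enrichment difference was 0.015 (exact sign-flip permutation test, p = 0.812) with a limit of 25% GC. With equal numbers of peaks the log2 ratios of MT over WT were -4.35 untreated, -3.43 after RNH1 and -4.53 for bona fide peaks, and the RNH1 overlap differed by 5.84 percentage points, or by 12.8 to 28.4 with 1 library left out. The cause was not tested for any of these. Regions only in MT numbered 204 at a fold enrichment of 4, 142 with bona fide peaks, 802 when regions holding any AT-rich peak counted, and 364 to 971 with 1 library left out, where fewer libraries had to hold or lack a peak. Regions only in WT numbered 3963 with bona fide peaks and 6825 to 9674 with 1 library left out.

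WT and MT libraries share only a replicate number. With the number as a replicate block the log2 ratios were -2.79 untreated, -1.34 after RNH1 and -3.27 for bona fide peaks, the shares differed by -8.73 and -7.28 and the RNH1 overlap by 20.6 percentage points (exact sign-flip test, p = 0.5, the smallest possible), and no call changed. Deviations of same-numbered libraries were uncorrelated (-0.0028 between WT and MT, 0.0147 and 0.0012 between untreated and RNH1-treated WT and MT libraries). Leaving out repeat-masked peaks was not run, since the genome used carries no repeat mask. Without read counts, depth could be followed only through the background pileup of 1.62 to 4.35 reads, which limits what the shorter WT RNH1 lists could show.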
